A study of Mus musculus with 4 samples.

Results

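IRF4 peaks of *Junb*-sufficient and *Junb*-deficient regulatory T (Treg) cells were compared peak by peak and gathered by gene. A peak is a stretch of the genome where DNA fragments recovered with an antibody pile up, here by chromatin immunoprecipitation and sequencing (ChIP-seq) with an antibody against IRF4. The *Junb*-sufficient list held 31093 IRF4 peaks and the *Junb*-deficient list 29033, together 60126 of the 103355 peaks in the 4 lists of the series, which also holds JunB and BATF peaks of *Junb*-sufficient cells. A peak was called kept if it shared at least 1 bp with a peak of the other IRF4 list, sufficient-only if it was in the *Junb*-sufficient list without such a partner, and deficient-only in the reverse case. Each peak went to the protein-coding gene with the transcription start site (TSS) nearest to its centre, in mm9 coordinates.

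The cells were CD4+CD25+ Treg cells from spleens of C57BL/6 mice, activated in culture for 60 h with antibodies to CD3 and CD28 and with IL-2. The GEO labels give the genotypes as Foxp3cre JUNB+/+ and Foxp3cre JUNBFl/Fl, whereas the publication describes the ChIP-seq cells as *Junb* fl/fl and Cd4Cre *Junb* fl/fl. A *Foxp3* promoter drives Cre in Treg cells and a *Cd4* promoter in all T cells, so the sources differ on which cells of the mouse lost *Junb* and on whether the control cells carried Cre. The antibody field of the labels also exchanges BATF and IRF4 between 2 *Junb*-sufficient libraries; the sample titles were followed here. There was 1 library for each genotype, the number of mice behind it is not given in the sources used here, and no comparison below carries a test. The IRF4 libraries held 23914441 (*Junb*-sufficient) and 21127029 (*Junb*-deficient) tags, of which 12.8% and 11.2% lay in peaks. Intervals are exact binomial 95% intervals over peaks, which cover counting error only.

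IRF4 is an interferon regulatory factor induced by T cell receptor signals and needed for effector Treg cells. By itself it binds DNA weakly, and it gains affinity by pairing with a partner on a composite element. At an AP-1-IRF composite element (AICE) the partner is an AP-1 pair, for example BATF with JunB, and at an Ets-IRF composite element (EICE) it is an Ets factor. IRF sites placed side by side can also bind IRF proteins without another partner.

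Examples of the DNA under the peaks are shown first, since the motif counts below rest on such windows. Each spans a peak centre and 100 bases on either side of it on the plus strand of the mm9 reference, in lower case with matches in capitals. The motifs searched on both strands were TGANTCA (AP-1), GAAA followed directly by TGANTCA or TTTC and 4 bases before it (AICE), GGAA and 2 bases before GAAA (EICE), and GAAA and 2 bases before GAAA (IRF pair). Every AICE match holds an AP-1 match by construction. The first 3 are the first-listed kept peaks of the 3 genes with the most kept peaks. All 3 were intergenic, at 451 kb from a *Myc* TSS (chr15:62270338-62270538), 286 kb from a *Gata3* TSS (chr2:9509121-9509321) and -341 kb from a *Cblb* TSS (chr16:51691031-51691231), where distances are negative before a TSS and positive after it.

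Myc kept peak: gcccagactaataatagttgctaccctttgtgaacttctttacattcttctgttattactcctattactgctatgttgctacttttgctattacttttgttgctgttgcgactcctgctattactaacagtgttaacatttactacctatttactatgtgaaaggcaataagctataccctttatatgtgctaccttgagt
Gata3 kept peak: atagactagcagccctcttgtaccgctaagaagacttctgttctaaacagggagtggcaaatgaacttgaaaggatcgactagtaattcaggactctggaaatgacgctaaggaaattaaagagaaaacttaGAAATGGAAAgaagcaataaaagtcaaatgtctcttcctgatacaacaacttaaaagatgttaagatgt
Cblb kept peak: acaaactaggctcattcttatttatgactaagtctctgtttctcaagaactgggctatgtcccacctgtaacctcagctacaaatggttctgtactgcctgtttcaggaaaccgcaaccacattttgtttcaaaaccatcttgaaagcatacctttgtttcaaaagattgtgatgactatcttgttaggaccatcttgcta

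The next 3 are the first-listed sufficient-only peaks of the genes with the largest surplus of such peaks. All 3 were intronic, for *Sox5* at chr6:143903075-143903275, for *Sgip1* at chr4:102559608-102559808 and for *Elmo1* at chr13:20186981-20187181.

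Sox5 sufficient-only peak: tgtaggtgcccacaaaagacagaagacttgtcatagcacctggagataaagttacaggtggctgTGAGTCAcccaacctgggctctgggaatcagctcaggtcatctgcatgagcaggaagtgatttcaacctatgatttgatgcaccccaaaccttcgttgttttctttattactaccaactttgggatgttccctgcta
Sgip1 sufficient-only peak: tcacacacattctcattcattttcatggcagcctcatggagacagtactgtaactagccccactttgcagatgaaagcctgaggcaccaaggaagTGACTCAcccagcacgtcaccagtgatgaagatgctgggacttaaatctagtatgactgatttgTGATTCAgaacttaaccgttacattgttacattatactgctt
Elmo1 sufficient-only peak: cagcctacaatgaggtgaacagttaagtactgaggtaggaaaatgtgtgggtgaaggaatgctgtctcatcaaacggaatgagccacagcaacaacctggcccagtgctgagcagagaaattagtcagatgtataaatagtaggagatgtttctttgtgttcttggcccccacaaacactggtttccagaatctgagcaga

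The first-listed deficient-only peaks of the 2 genes with the largest surplus of that kind were intronic too, for *Tox* at chr4:6903078-6903278 and for *Cradd* at chr10:94727669-94727869.

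Tox deficient-only peak: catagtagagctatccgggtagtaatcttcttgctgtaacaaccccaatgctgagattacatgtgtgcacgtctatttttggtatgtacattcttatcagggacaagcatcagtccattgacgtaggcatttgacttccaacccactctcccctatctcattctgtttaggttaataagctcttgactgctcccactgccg
Cradd deficient-only peak: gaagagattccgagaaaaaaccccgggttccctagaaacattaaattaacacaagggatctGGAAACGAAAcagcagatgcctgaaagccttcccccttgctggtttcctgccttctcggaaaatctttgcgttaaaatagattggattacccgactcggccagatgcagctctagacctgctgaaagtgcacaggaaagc

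The last 3 are promoter windows picked after their values were seen, because a strong promoter peak in one list had no counterpart in the other. They lay at *Ctla4* (chr1:60965681-60965881), *Il2ra* (chr2:11564188-11564388) and *Bhlhe40* (chr6:108609986-108610186).

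Ctla4 sufficient-only peak: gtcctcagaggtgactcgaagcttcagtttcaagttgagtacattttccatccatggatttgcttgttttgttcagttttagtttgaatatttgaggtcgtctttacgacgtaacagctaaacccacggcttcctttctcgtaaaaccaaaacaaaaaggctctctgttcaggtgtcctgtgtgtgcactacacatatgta
Il2ra sufficient-only peak: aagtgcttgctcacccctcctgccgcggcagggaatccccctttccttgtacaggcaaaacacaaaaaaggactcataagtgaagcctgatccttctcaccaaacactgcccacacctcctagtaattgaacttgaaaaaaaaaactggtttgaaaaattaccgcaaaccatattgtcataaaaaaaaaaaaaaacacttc
Bhlhe40 deficient-only peak: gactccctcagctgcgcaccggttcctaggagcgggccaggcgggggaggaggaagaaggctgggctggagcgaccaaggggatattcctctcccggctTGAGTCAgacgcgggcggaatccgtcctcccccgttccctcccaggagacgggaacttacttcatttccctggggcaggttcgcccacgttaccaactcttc

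Of these 11 windows, the *Sox5* window held 1 AP-1 match, the *Sgip1* window 2 and the *Bhlhe40* window 1, the *Gata3* window an IRF pair, and the *Cradd* window an EICE match. The other windows held none of the searched letters, which says nothing about the factors that bind there.

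Of the 31093 IRF4 peaks of *Junb*-sufficient cells, 20218 were kept and 10875 were sufficient-only, or 35.0% (34.4 to 35.5%). Of the 29033 peaks of *Junb*-deficient cells, 8815 were deficient-only, or 30.4% (29.8 to 30.9%). These shares are the background for every gene below. Had the antibody field of the labels been followed in place of the titles, the shares would have been 25.2% and 65.0%. The lists carry no value per peak other than a score of 1, but their order is informative. With the *Junb*-sufficient list cut into 20 equal parts, 2.96% of peaks in the first part had no counterpart, and in the last part 70.5% had none. The range in the *Junb*-deficient list was 2.07 to 61.8%. The median sufficient-only peak stood 70.9% of the way down its list and the median kept peak 38.2%. A gene whose peaks stand low would thus show many unmatched peaks for that reason alone. Each class and gene is therefore given with an expected number, which is the sum over its peaks of the unmatched share in the same part of the list.

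**Figure D1:**
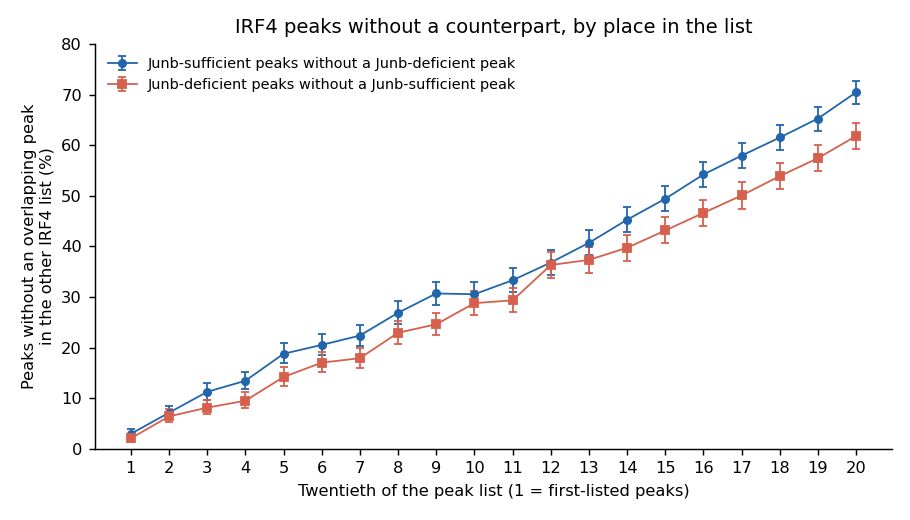
Share of IRF4 peaks without an overlapping peak in the other IRF4 list (vertical axis, percent) in each of 20 equal parts of the list (horizontal axis, first-listed peaks at left). Points are shares with exact binomial 95% intervals, circles for the Junb-sufficient list and squares for the Junb-deficient list, and both rise from under 3% to over 60%.

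Promoter peaks were sufficient-only less often than peaks elsewhere. A promoter was taken as 1 kb before to 100 bp after a TSS. Of 4412 promoter peaks in *Junb*-sufficient cells, 1039 were sufficient-only, or 23.5% (22.3 to 24.8%), where place in the list gave an expected 39.5%. The gap was there in the first 10 parts of the list (12.7% observed, 23.3% expected) and in the last 10 (30.1% observed, 49.3% expected). Intronic peaks were at 36.4% (35.6 to 37.3%) against an expected 33.3%, and intergenic peaks at 37.4% (36.5 to 38.2%) against 35.0%. Exonic peaks, 841 in number, were at 36.4% (33.1 to 39.7%), which includes the expected 37.1%.

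In the other direction the promoter gap was smaller. Of 4848 promoter peaks in *Junb*-deficient cells 30.0% (28.7 to 31.3%) were deficient-only, against an expected 34.5%. Intronic peaks were at 31.2% against 28.9% and intergenic peaks at 29.2% against 29.9%. As a result promoters made up 9.55% of sufficient-only peaks, 16.7% of kept peaks and 16.5% of deficient-only peaks. The median distance to the nearest TSS was 16.4 kb for sufficient-only, 14.0 kb for kept and 13.4 kb for deficient-only peaks.

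**Figure D2:**
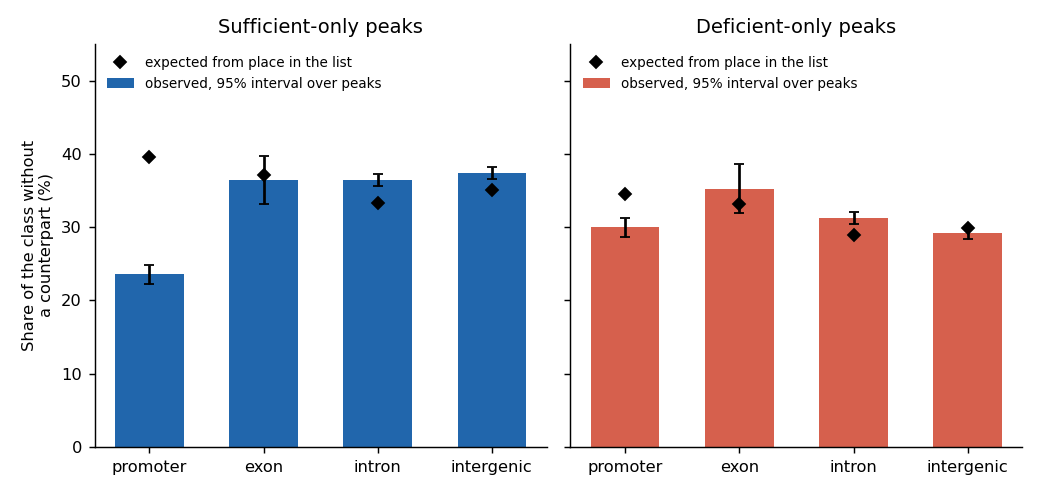
Share of IRF4 peaks without a counterpart (vertical axis, percent) by annotation class, for the Junb-sufficient list at left and the Junb-deficient list at right. Bars are observed shares with exact binomial 95% intervals and diamonds the shares expected from place in the list; among promoters 23.5% were sufficient-only against an expected 39.5%.

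Promoter peaks overlapped a JunB peak less often than other peaks did, at 16.5% against 46.1% of intronic and 42.5% of intergenic peaks. Within peaks that overlapped a JunB peak, promoters were still at 16.7% sufficient-only (14.1 to 19.6%) against an expected 25.2%, and introns at 24.7% (23.6 to 25.8%) against 20.8%. Within peaks off JunB, promoters were at 24.9% (23.5 to 26.3%) against 42.4%, and introns at 46.5% (45.4 to 47.7%) against 44.0%. The promoter gap was therefore present at and off JunB peaks.

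A few promoter peaks near the top of the list did go unmatched. The first-listed sufficient-only one was at *Sfi1*, at place 72 (0.232%) and off JunB. The first-listed deficient-only one was at *Gm10722*, at place 8 (0.0276%) and at a JunB peak. The 3 described next were picked for their genes among such unmatched peaks, after their values were seen, and stood further down. The *Ctla4* promoter peak, at -0.088 kb from a TSS of this inhibitory receptor gene, stood at place 396 (1.27% down the list) and overlapped a JunB peak. The nearest *Junb*-deficient IRF4 peak centre was 3204 bp away. At *Il2ra*, which encodes the high-affinity IL-2 receptor chain CD25, the *Junb*-sufficient peak lay at -0.131 kb from the TSS at place 1084 (3.49%) and overlapped JunB and BATF peaks. The only *Junb*-deficient peak assigned to *Il2ra* was intronic, 19.9 kb after the TSS, at place 3331 of its list (11.5%). No JunB or BATF peak lay there, which was so for most deficient-only peaks. A promoter peak of *Bhlhe40*, a TCR-induced repressor of *Il10*, was deficient-only at place 2013 (6.93%). Unlike most deficient-only peaks it overlapped a JunB peak, but no BATF peak. A *Junb*-sufficient peak centre lay 1660 bp away.

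The letters under the peaks differed between kinds. TGANTCA was found in 39.2% of sufficient-only windows (38.3 to 40.1%), 28.6% of kept windows (28.0 to 29.2%) and 10.4% of deficient-only windows (9.73 to 11.0%). In peaks from the same part of the list, here called a like place, the share was 28.6% for sufficient-only, 34.3% for kept and 19.5% for deficient-only peaks. Windows of the same length 5 kb to the side of the *Junb*-sufficient peaks, free of any peak, held it in 5.99%. The IRF pair ran the other way, with 6.39% of sufficient-only (5.94 to 6.87%), 11.2% of kept (10.7 to 11.6%) and 12.8% of deficient-only windows (12.1 to 13.5%). Its shares at a like place were 8.92%, 9.80% and 11.0%, and the side windows held it in 2.71%.

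AICE letters were rare, at 2.74% of sufficient-only and 2.93% of kept windows, with overlapping intervals (2.44 to 3.06% and 2.70 to 3.17%), and at 1.08% of deficient-only windows (0.873 to 1.32%). At a like place the AICE shares were 2.24% for sufficient-only, 3.20% for kept and 1.82% for deficient-only peaks. The sufficient-only interval lay above its like-place share, and the kept and deficient-only intervals lay below theirs. The side windows held AICE letters in 0.149%. EICE letters were at 3.45%, 3.90% and 3.52% in the same order, against 1.91% in the side windows, and all 3 intervals overlapped.

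The AP-1 difference was also seen away from promoters. Among non-promoter peaks of *Junb*-sufficient cells with TGANTCA, 42.9% (41.9 to 43.9%) were sufficient-only against an expected 31.0%, and without it 33.5% (32.8 to 34.2%) against 36.1%. Among promoter peaks with it the share was 32.3% (28.0 to 36.7%), at the expected 32.1%, and without it 22.5% (21.2 to 23.9%) against 40.4%. Promoter peaks held TGANTCA in 10.5% and other peaks in 35.9%.

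JunB and BATF peaks were counted next, both from *Junb*-sufficient cells, the same genotype as the sufficient list. A JunB peak overlapped 47.2% of kept, 27.4% (26.6 to 28.2%) of sufficient-only and 8.59% (8.01 to 9.19%) of deficient-only peaks. At a like place these shares were 48.8%, 24.5% and 22.2%. BATF peaks overlapped 48.3%, 20.8% and 4.42%, against 47.4%, 22.4% and 22.0% at a like place. Sufficient-only peaks were thus above their place in AP-1 letters and, by 2.92 percentage points, in JunB overlap, and below it in BATF overlap.

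**Figure D3:**
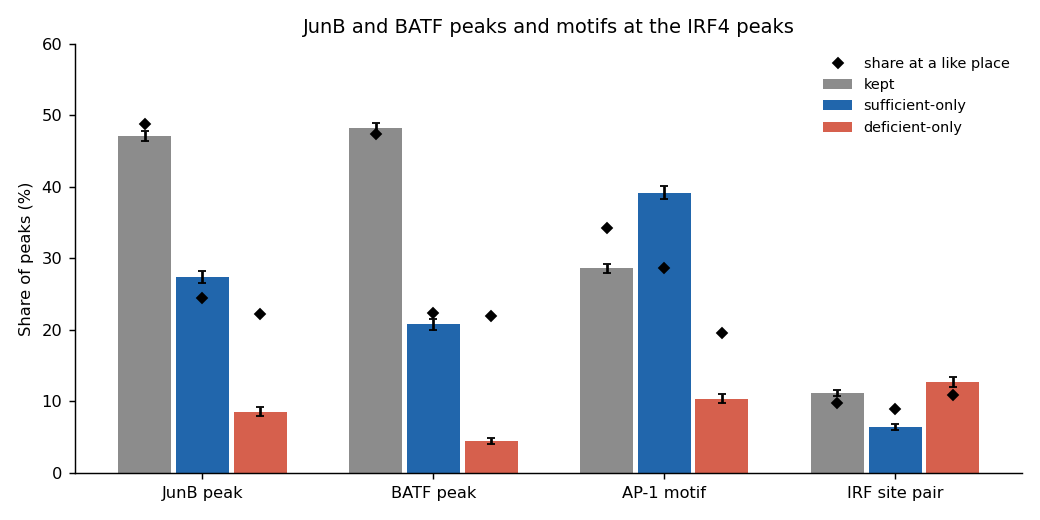
Share of IRF4 peaks (vertical axis, percent) that overlap a JunB or BATF peak or hold an AP-1 or IRF pair motif within 100 bp of the centre, for kept, sufficient-only and deficient-only peaks. Bars carry exact binomial 95% intervals and diamonds mark the share at a like place; the AP-1 bar is highest for sufficient-only peaks (39.2%) and lowest for deficient-only peaks (10.4%).

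A peak without an overlap can still have an IRF4 peak nearby. Of the 10875 sufficient-only peaks 5.80% had a *Junb*-deficient IRF4 peak centre within 2 kb and 38.7% within 10 kb. In the first of the 20 parts there were 46 sufficient-only peaks, and 82.6% had one within 10 kb. Peaks with 1 other peak of their own list within 5 kb, 2228 in number, were sufficient-only in 41.2% (39.1 to 43.2%) against an expected 24.7%, while 28857 peaks without such a neighbour were at 34.5% against 35.8%. The peak caller compared each peak with the 10 kb around it and removed 37.4% (*Junb*-sufficient) and 36.2% (*Junb*-deficient) of putative peaks on that ground. It also set a minimum distance between peaks of the same list, 1224 bp (*Junb*-sufficient) and 1210 bp (*Junb*-deficient). Sites closer than that could not both be listed for the same library. The part of both rules in these shares was not tested.

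By gene, 13402 protein-coding genes were nearest to at least 1 IRF4 peak. Of these 10203 had peaks in both lists, 1695 in the *Junb*-sufficient list only and 1504 in the *Junb*-deficient list only. Most of the one-list genes had a single peak (1423 and 1337). Of genes with *Junb*-sufficient peaks the median number was 2, and 53 genes had 20 or more. Sufficient-only peaks were assigned to 6539 genes, deficient-only peaks to 5812 and both kinds to 3074.

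The most kept IRF4 peaks lay nearest to *Myc*, the growth and proliferation factor, where 42 of 58 *Junb*-sufficient peaks were kept. All 58 were intergenic and the kept ones spread from -530 to 859 kb from a TSS. *Gata3*, a transcription factor of type 2 helper cells that Treg cells also use, had 35 kept of 47. *Cblb*, a ubiquitin ligase that restrains T cell activation, had 28 of 36. *Bach2*, a repressor of effector differentiation, had 27 of 34, and its kept peaks stood high, with a median place of 7.46%. The others of the first 8 were the uncharacterised *3110018I06Rik* (27 of 35), the adhesion gene *Lpp* (25 of 40), the zinc finger gene *Klf6* (25 of 40) and the GATA-type repressor *Trps1* (25 of 38).

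Such counts were not corrected for the size of the region nearest to a gene. *Myc* had 1.44 Mb nearest to its TSSs and 40.2 *Junb*-sufficient peaks per Mb, *Trps1* 1.57 Mb and 24.2 per Mb, and *Bach2* 0.469 Mb and 72.5 per Mb, where the whole genome had 11.7 per Mb. Of the 234 kept peaks of these 8 genes 69.2% lay more than 100 kb from a TSS, where the nearest gene need not be the one regulated. A JunB peak overlapped 166 of the 234 (70.9%), against 66.3% at a like place. With only peaks within 100 kb of a TSS counted, 1 of these 8 genes stayed among the first 8, and with the TSSs of all annotated genes 2 did.

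Sufficient-only peaks were most numerous at *Sox5*, a SRY-box transcription factor known from cartilage and nervous tissue. It had 39 *Junb*-sufficient peaks and 22 *Junb*-deficient peaks, and 21 of the 39 were sufficient-only where place gave 12.3. Those 21 stood between 13.4% and 95.6% down the list, 16 were intronic, 9 overlapped a JunB peak and 10 held TGANTCA. Only 4 peaks were deficient-only, against an expected 5.51. *Myc* came next with 16 sufficient-only peaks (expected 12.2), followed by *Lpp* with 15 (9.85), *Klf6* with 15 (11.0), *Ext1* with 14 (8.76), and *Trps1*, *Inpp4b* and *Celf2* with 13 each (12.9, 7.93 and 7.41). *Trps1* thus held about the number that place gives.

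Ordered by observed minus expected number, *Sox5* led with a surplus of 8.65 peaks, which was 2.74 within the first 50% of both lists. In that setting a peak also counts as unmatched if its partner stands in the last 50% of the other list. *Sgip1*, an endocytic adaptor gene, followed with 11 of 15 peaks sufficient-only where 4.1 were expected, a surplus of 6.90. It kept 4 peaks and had no deficient-only peak, so 15 peaks stood against 4, and 9 of the 11 sufficient-only windows held TGANTCA. *Elmo1*, a partner of the DOCK activators of Rac in cell migration, had 12 of 21 against 6.21 expected. The rest were *Celf2*, an RNA-binding splicing regulator (surplus 5.59), *Ext1*, which builds heparan sulfate chains (5.24), *Lpp* (5.15), *Inpp4b*, a phosphoinositide phosphatase (5.07), and *Inhba*, which encodes the activin A subunit (4.90). With only the first 50% of both lists, 2 of these 8 genes stayed among the first 8 and the difference was -0.629 peaks at *Inhba*, 0.139 at *Lpp*, 1.55 at *Inpp4b* and 2.01 at *Ext1*.

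These genes did not all lose peaks on balance. *Lpp* had 10 deficient-only peaks against an expected 6.53, *Celf2* 8 against 4.92 and *Inpp4b* 7 against 4.90, so they held more unmatched peaks than place gives in both directions. *Sgip1* and *Sox5* had fewer deficient-only peaks than expected. Over the 8 genes with the largest surplus, 48 of 110 sufficient-only peaks overlapped a JunB peak (43.6%, at a like place 35.0%) and 49 held TGANTCA (44.5%, at a like place 31.0%). Among all sufficient-only peaks the shares were 27.4% and 39.2%, but those peaks stood further down (median place 70.9% against 50.3% for the 110). Their 113 kept peaks overlapped JunB in 76.1% (67.4% at a like place) and held TGANTCA in 38.1% (38.8%). *3110018I06Rik* stood below its expectation in both directions, with 8 sufficient-only peaks against 12.0 expected and 4 deficient-only against 8.92.

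**Figure D4:**
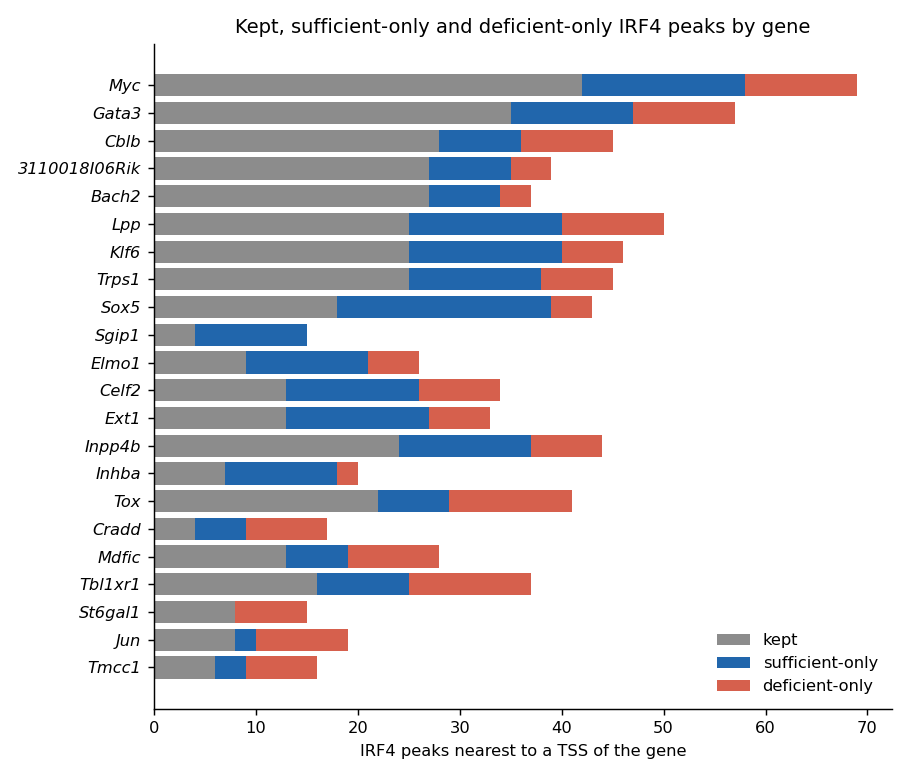
Number of IRF4 peaks nearest to a TSS of each gene (horizontal axis), split into kept, sufficient-only and deficient-only peaks, for the 8 genes with the most kept peaks, the 8 with the largest surplus of sufficient-only peaks and 7 of the 8 with the largest surplus of deficient-only peaks. Kept peaks are the longest stretch at Myc (42), sufficient-only peaks outnumber kept ones at Sox5 (21 and 18) and Sgip1 (11 and 4), and St6gal1 has no sufficient-only peak.

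Deficient-only peaks were most numerous at *Tox*, an HMG-box factor of T cell development and exhaustion, and at *Tbl1xr1*, a subunit of nuclear corepressor complexes, with 12 each. At *Tox* 12 of 34 *Junb*-deficient peaks had no partner where place gave 6.23, and 7 of 29 *Junb*-sufficient peaks, against 7.25. Of the 12 deficient-only peaks at *Tox* 1 overlapped a JunB peak and none a BATF peak, while 16 of its 22 kept peaks overlapped JunB. At *Tbl1xr1* the 12 came from 28 peaks, with 7.44 expected. Next were *Myc* with 11 (11.1 expected) and *Zfp608* with 11 (6.93), *Gata3* (9.11), *Lpp* (6.53) and the BCL6 corepressor gene *Bcor* (6.28) with 10 each, and *Cblb* with 9 (8.29). *Myc*, *Gata3* and *Cblb* thus lay near the number that place gives.

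By surplus, 7 of the first 8 genes were *Tox* (5.77), *Cradd*, a death-domain adaptor of caspase-2 (5.54), *Mdfic* (4.60), *Tbl1xr1* (4.56), the sialyltransferase gene *St6gal1* (4.54), *Jun* (4.39) and *Tmcc1* (4.38). With only peaks within 100 kb of a TSS, 2 of the first 8 stayed among the first 8 and the difference was -0.212 peaks at *Tbl1xr1* and 1.72 at *Tox*. With the first 50% of both lists it was 0.971 at *Mdfic*. *St6gal1* kept all 8 of its *Junb*-sufficient peaks and had 7 further peaks in *Junb*-deficient cells. *Jun* encodes an AP-1 relative of JunB. It had 10 *Junb*-sufficient and 17 *Junb*-deficient IRF4 peaks, and 9 of the 17 were deficient-only (4.61 expected), one of them at its promoter, at -0.053 kb from the TSS. None of the 9 overlapped a JunB peak, which was so for most deficient-only peaks of the list. The surplus at *Jun* was 0.821 with the TSSs of all annotated genes and 1.73 with the first 50% of both lists. A *Junb*-sufficient IRF4 peak centre lay 1159 bp from that promoter peak, which is less than the minimum distance between peaks of the same list. Over all 8 genes 9 of 72 deficient-only peaks overlapped a JunB peak (12.5%, at a like place 33.1%), and 13 held TGANTCA (18.1%, at a like place 21.4%). The like-place shares count kept peaks too. Among all deficient-only peaks the shares were lower, 8.59% and 10.4%, but those peaks stood further down (median place 71.1% against 47.7% for the 72).

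Of the 1160 genes with at least 6 *Junb*-sufficient peaks, 2 kept none. *Lrrfip2* had 7 sufficient-only peaks where 3.34 were expected, between 29.6% and 92.9% down the list, and 2 deficient-only peaks. *Traf6*, a ubiquitin ligase of Toll-like and IL-1 receptor signalling, had 6 against 2.39, between 22.1% and 95.2%, and also 2 deficient-only peaks. All peaks were kept at 59 genes. The first 5 of them were *S1pr1*, the receptor for lymphocyte egress (10 of 10, 1.70 sufficient-only expected), *Crim1* (9, 2.50), *St6gal1* (8, 1.51), the deadenylase gene *Cnot6l* (8, 2.38) and *Gm6189* (8, 1.43). Surpluses of at least 2 sufficient-only peaks were found at 120 of the 1160 genes and deficits of at least 2 at 41. A deficit of 2 can arise only where at least 2 are expected, so the counts of surpluses and deficits are not directly comparable. How many genes would fall in each group by counting error alone was not worked out.

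Kept peaks could still change place. Over all kept peaks the median change, *Junb*-deficient minus *Junb*-sufficient place in percent of the list, was 0.298. Of 839 genes with at least 5 kept peaks, 415 had a median below 0, which means further up in the *Junb*-deficient list. The kept peaks went down most at *Gm5447* (37.6 points, 6 kept peaks), the integrin gene *Itga2* (34.2, 5 peaks), *Gas2* (33.0, 6 peaks), *Akap2* (30.5, 6 peaks) and the orphan nuclear receptor gene *Nr2f1* (30.2, 5 peaks). The change at a like place was between -1.55 and 2.76 points for these 5. *Sgip1* moved down too, by 26.8 points over its 4 kept peaks, and *Sox5* by 7.26 over 18. Peaks went up most at *Myo1e*, a class I myosin gene (-31.0 points, 7 kept peaks), *Klf3* (-28.3, 7), *Atp8b4* (-26.3, 7), *Gm6994* (-24.1, 6) and *Bcor* (-23.3, 5), where peaks at a like place changed by between -8.20 and 0.752 points. At *Bcor* the kept peaks went up and deficient-only peaks were also in surplus.

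At genes that the study names for effector Treg cells, 47 of 156 *Junb*-sufficient IRF4 peaks were sufficient-only (30.1%, 23.0 to 38.0%) where place gave 23.3%, and 30 of 139 *Junb*-deficient peaks were deficient-only (21.6%) against 20.6%. The interval of the first share includes its expected value. Of 13 genes with a *Junb*-sufficient peak, 9 had more sufficient-only peaks than expected and 4 fewer; *Ccr10* had no peak. The surplus was largest at *Ctla4*, with 5 of 13 where 1.64 were expected, and at *Maf*, a factor of IL-10-producing T cells, with 11 of 24 against 7.65. *Icos*, the inducible costimulator, had 5 of 18 against 2.76, and *Il1rl1*, the IL-33 receptor ST2, 4 of 7 against 1.85. At *Icos* the difference was -0.194 peaks and at *Ctla4* 2.19 when the TSSs of all annotated genes were used, and at *Maf* it was 0.312 with only peaks within 100 kb of a TSS and 1.55 with the first 50% of both lists. Of the 5 at *Ctla4* 4 overlapped a JunB peak and all stood in the first 10 parts of the list, while 9 of the 11 at *Maf* stood in the last 10.

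Among the other genes of this list *Gata3* had 12 sufficient-only peaks (11.4 expected) and *Prdm1*, the gene of the effector factor Blimp-1, had 4 of 17 (4.08). *Prdm1* also had 6 deficient-only peaks of 19 (3.95), none at a JunB peak. *Gzmb*, which encodes granzyme B, kept 7 of 7 peaks (1.57 sufficient-only expected). Of these, 3 stood further up in the *Junb*-deficient list and 4 further down, the promoter peak at 86.7% against 43.2%. By PCR after ChIP at chosen sites, the paper reported less IRF4 binding near *Gzmb*, *Icos*, *Ctla4* and *Maf* without JunB. It had picked sites where IRF4 binding was lower in its ChIP-seq data, so they are not independent of the lists used here. It reported no effect at sites near *Prdm1* and *Gata3*, so the list pools genes of both kinds. A kept peak here does not measure binding strength. *Klrg1*, an inhibitory receptor gene of terminal effector cells, had 2 *Junb*-sufficient and 5 *Junb*-deficient peaks. Of the 5, 4 were deficient-only (1.31 expected), off every JunB and BATF peak. In the whole list 8.59% of deficient-only peaks overlapped a JunB peak and 4.42% a BATF peak, so *Prdm1* and *Klrg1* did not stand out in this.

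**Figure D5:**
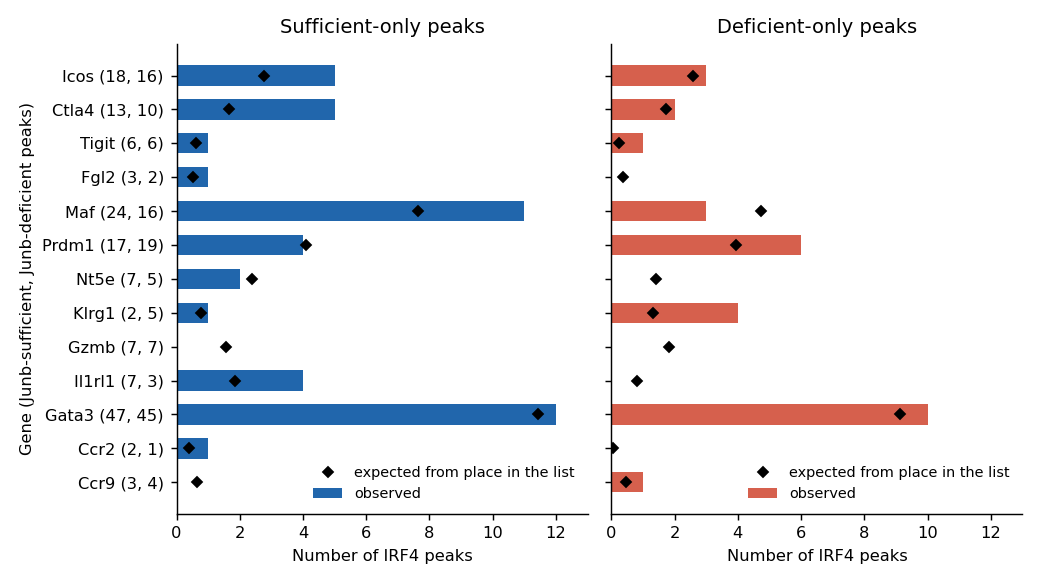
Number of sufficient-only (left) and deficient-only (right) IRF4 peaks (horizontal axes) at 13 effector Treg genes named by the study, with the number of Junb-sufficient and Junb-deficient peaks in brackets after each gene. Bars are observed and diamonds expected numbers; observed sufficient-only counts exceed the expected ones most at Ctla4 (5 and 1.64) and Maf (11 and 7.65).

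Treg identity genes had 11 of 33 peaks sufficient-only (33.3%) where 19.5% was expected, a value inside the 95% interval of the observed share. *Foxp3*, the lineage factor, had 1 IRF4 peak, intronic, which was kept and stood 13.2% down the *Junb*-sufficient and 7.97% down the *Junb*-deficient list. *Ikzf2*, the Helios gene, had 4 of 13 (3.68 expected). Apart from *Ctla4*, the counts in this list rested on 0 to 4 sufficient-only peaks a gene.

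Among AP-1 and IRF factors and their partners 18 of 58 peaks were sufficient-only (31.0%, 23.4% expected) and 19 of 59 deficient-only (32.2%, 19.8% expected), with intervals of 19.5 to 44.5% and 20.6 to 45.6%. Of the 19 deficient-only peaks, 9 were at *Jun*. *Batf* had 3 deficient-only peaks of 6 (0.948 expected), one at its promoter at -0.163 kb, and *Irf4* itself kept 9 of 11 with no deficient-only peak. *Irf2* had 5 of 12 sufficient-only (3.19 expected) and *Irf8* 3 of 6 (1.41). No IRF4 peak of either list was nearest to *Junb*.

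Genes of the resting T cell program had 31 of 136 peaks sufficient-only (22.8%, 21.5% expected) and 24 of 129 deficient-only (18.6%, 17.9% expected). Within this list *Satb1*, a chromatin organiser, had 9 of 21 sufficient-only (6.37 expected) and *S1pr1* 0 of 10. *Foxp1* had 8 of 31 deficient-only (5.59 expected). Genes of nuclear factors induced through the T cell receptor had 44 of 156 sufficient-only (28.2%, 23.5% expected) and 38 of 150 deficient-only (25.3%, 20.4% expected), of which *Tox* held 12. *Nr4a3*, an orphan nuclear receptor gene, had 7 of 18 sufficient-only (4.59 expected). *Bhlhe40* had 5 of 10 deficient-only (2.66 expected).

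Helper cytokine genes had 12 of 48 peaks sufficient-only (95% interval 13.6 to 39.6%) against an expected 28.3%, and 17 of 53 deficient-only (32.1%, 19.9 to 46.3%) against 19.9%, and both intervals include the expected share. *Ifng* had 7 deficient-only peaks of 18 (4.39 expected) and *Csf2*, the GM-CSF gene, 3 of 7 (0.996). *Il2* had 3 of 5 sufficient-only (1.17 expected). All 5 peaks of *Il10*, the anti-inflammatory cytokine gene, were kept.

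A peak near a gene is no measure of its expression, but marker genes were counted. A *Junb*-sufficient IRF4 peak was nearest to 6 of 6 Treg cell genes, 4 of 6 T cell genes, 1 of 2 CD8 T cell genes, 2 of 6 B cell genes, 3 of 6 myeloid cell genes and 2 of 6 liver genes. Of all 22380 protein-coding genes 11898 had such a peak. Against that background sets of 2 to 6 genes are too small to check the cell type. By chromosome, leaving out Y, the sufficient-only share ran from 32.2% on chromosome 1 to 37.8% on chromosome 14 and the deficient-only share from 28.3% on chromosome 13 to 34.2% on X.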

How the data were processed

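Reads were mapped by the authors to mm9 (Bowtie2, unique alignments only) and passed to HOMER for peak calling at default settings, with no input library; the submitters' processing notes name HOMER 4.8, and the labels name the cells and antibodies. Per the file headers, peaks passed a false discovery rate of 0.001, needed 4-fold more tags than the local 10 kb, and counted 1 tag per position. The deposited lists give mm9 coordinates and a score of 1 for every peak, so there is no tag count per peak and no depth behind a single peak. Peaks were usually 613 (*Junb*-sufficient) and 605 bp (*Junb*-deficient) wide.

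From these, overlaps of at least 1 bp, the nearest of 69976 protein-coding TSS positions of GENCODE vM1 (mm9) and annotation classes (promoter before exon, intron and intergenic, at the peak centre) were computed with Python 3.11.15, NumPy 2.4.6, SciPy 1.17.1 and pandas 2.3.3. Of kept peaks 99.3% had a partner with the same nearest gene. Expected numbers used 20 equal parts of a list. The overlap and expectation steps were tested on simulated data. Motifs were searched within 100 bp of the peak centre.

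Genes named are the first 8 by kept, sufficient-only and deficient-only number and by observed minus expected number, up to 5 each with no or all peaks kept, the 5 each whose kept peaks moved most, and genes of set lists; 1 gene that met the rule is not reported here. *Sfi1* and *Gm10722* are named in addition, as the genes of the first-listed unmatched promoter peaks. Members and lists were chosen with earlier results of these data known. Each genotype had 1 IRF4 library here, so no test was made. Overlaps and TSS sets were varied as described in the closing section.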

Additional observations from a re-analysis of the deposited data

How the results depend on the processing

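Requiring an overlap of 50% of both peaks raised the sufficient-only share to 38.9% and the deficient-only share to 34.6%, and centres within 100 bp gave 45.2% and 41.3%. The same number of first-listed peaks gave 32.5% for both, the first 50% of both lists 33.9% and 29.2%, and the antibody field of the labels 25.2% and 65.0%. Counting an other-list centre within 2 kb as kept, chosen after seeing the data, gave 32.9% and 28.3%. Promoters stayed below their expected share, by -13.5 points with the 50% overlap, -11.5 with the first 50% of the lists and -14.3 with promoters of 1 kb on both sides. With the first 50% of the lists introns were 2.12 and intergenic peaks 0.590 points above theirs. Relative to a like place, sufficient-only peaks with AP-1 letters stood 8.64 points higher with the 50% overlap and 14.0 with the first 50% of the lists, and those at JunB peaks 1.64 and 6.52, both settings chosen after seeing the data. Deficient-only peaks stood at -10.9 points for AP-1 letters and -20.3 for JunB with the first 50% of the lists.

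Of the first 8 genes by kept number, 1 stayed with peaks within 100 kb only and 2 with the TSSs of all annotated genes. By sufficient-only surplus 2 stayed with the first 50% of the lists, 5 within 100 kb and 4 with all TSSs, and by deficient-only surplus 4, 2 and 4. By the last order 5 stayed with the 50% overlap and 5 with the 2 kb limit. Expectations from 10 or 50 parts of the list kept all 8 in each order. The sign of a gene's difference turned at *Gata3* (-1.33 with the 50% overlap, -1.94 with the first 50% of the lists), *Prdm1* (-0.0810 as reported, 0.282 with the 50% overlap, 0.0912 with all TSSs), *Inhba* (-0.629) and *Gzmb* (0.0183) with the first 50% of the lists, *Tbl1xr1* (-0.212) within 100 kb and *Icos* (-0.194) with all TSSs. The cause was not tested, except that shorter lists and fewer peaks follow from the settings. The surplus at *Sox5* ranged from 2.74 to 9.19 and at *Sgip1* from 5.11 to 7.21 over 8 alternatives.

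With 1 library per genotype no library was left out and the spread between animals is unknown. No paired analysis was possible because each genotype had 1 IRF4 library. The lists hold no tag counts per peak, so a missing peak and a weaker one cannot be told apart.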
